A study of Mus musculus with 15 samples.

Results

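The TNF ligand and receptor superfamily was followed in the small-intestinal epithelium of mice given RANKL, itself a ligand of the family. Members were the genes whose symbols start with Tnfrsf or Tnfsf, together with Lta, Ltb, Ltbr, Tnf, Fas, Fasl, Cd40, Cd40lg, Cd27, Cd70 and Eda2r. The rule used names and no measured value. It found 40 of the 19938 genes measured, 25 receptors and 15 ligands, each read by 1 probe set. By role they were 3 genes of the RANKL axis, 8 of the TNF and lymphotoxin axis, 10 death receptors and their ligands, 12 co-stimulatory genes of lymphocytes, 4 of the BAFF and APRIL axis and 3 others.

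Epithelial cells were peeled from the small intestine of wild-type BALB/c mice 10 weeks of age after EDTA, and their RNA was read on 15 Affymetrix arrays, 3 in each of 5 groups. The control mice carry no agent in the labels. The other groups received a fusion of GST and RANKL into the peritoneum for 1, 2, 3 or 4 days. No group given GST alone is among the samples, so GST, the injections and RANKL cannot be told apart. The labels do not state that the 3 arrays of each group stand for different animals, and p-values therefore measure only the spread between arrays, which may be technical.

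Ligands of this family are mostly membrane proteins that can be shed, and their receptors act through adaptors of the TRAF family or through death domains. RANK, the receptor encoded by Tnfrsf11a, signals to NF-kB by the classical route and by the route in which the kinase encoded by Map3k14 leads to processing of the Nfkb2 product. Osteoprotegerin, encoded by Tnfrsf11b, is a secreted decoy that binds RANKL and keeps it from RANK. In the gut, RANKL made by stromal cells under Peyer's patches induces M cells, which take up particles from the lumen and hand them to lymphoid tissue. The comparisons with control ask which genes of the ligand's own family move on each day of treatment.

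Array medians of intensity lay between 147 and 167, and RANKL day 1 replicate 2 had the highest median and the narrowest interquartile range on the log2 scale (1.95, against 2.26 to 2.55 on the other arrays). Day 1 changes of the genes called that day, and of Tnf, Tnfsf11, Ltbr and Fas, are given with and without it. Values are log2 intensities after quantile normalization, and changes are differences of group means on that scale. Calls are adjusted p-values under 0.05. Whether arrays of a day overlap the controls is also described, and is no test. Of all 19938 genes, 1212, 1612, 2443 and 2409 had every array of the day above every control on days 1 to 4. Those with every array below were 1696, 1883, 1974 and 1229. All 13 epithelial markers lay above background in every group and none was called on any day. RNA of other cells was read as well: in controls 10 of 13 T cell and 7 of 11 stromal markers lay above background. On day 4, 7 of 9 tuft cell and 5 of 10 enteroendocrine cell markers were higher, against 0.818% of all genes. No goblet or Paneth cell marker was called that day. Background was taken as 7.32, the 95th percentile of the group means of 1194 olfactory and vomeronasal receptor genes. Of the 40 members, 22 lay above it in at least 1 group and 18 did not in any. Since a gene can reach that level through the group where it is high, the split is a description only, and no gene was left out of the tests by it.

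Of the 40 members, 9 were called on at least 1 day and 31 on none. On day 1, 4 members were higher, Tnfrsf11a, Tnfrsf11b, Tnfrsf1b and Tnfrsf10b, against 2% of all genes. On that day 1 member, Tnfrsf14, was lower, against 1.94% of all genes. On day 2, 7 members were higher, against 1.52% of all genes: Tnfrsf11a, Tnfrsf11b, Tnfrsf1b, Tnf, Tnfsf10, Tnfrsf4 and Tnfrsf19. On day 3 there were 2, Tnfrsf11b and Tnfrsf1b, against 1.72%, and on day 4 there was 1, Tnfrsf19, against 0.818%. With the replicate number as a block, day 3 gave 5 members, Tnf and Tnfrsf11a higher and Tnfrsf14 lower besides, while calls over all genes went from 590 to 712. The block also gave Tnfrsf14 as lower on day 2 (adjusted p = 0.00721) and day 4 (0.0479). Under the reported setting, without a block, no member was lower on days 2, 3 or 4, where 1.05%, 1.24% and 0.0903% of all genes were. The median change over the 40 members was 0.03, 0.01, -0.01 and 0.01 on days 1 to 4, and that of all genes was -0.01, -0.02, -0.01 and 0.01. The F test over all 4 days called Tnfrsf11a, Tnfrsf11b and Tnfrsf1b (adjusted p = 0.00591, 0.000361 and 0.00486), against 3.6% of all genes.

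**Figure D1:**
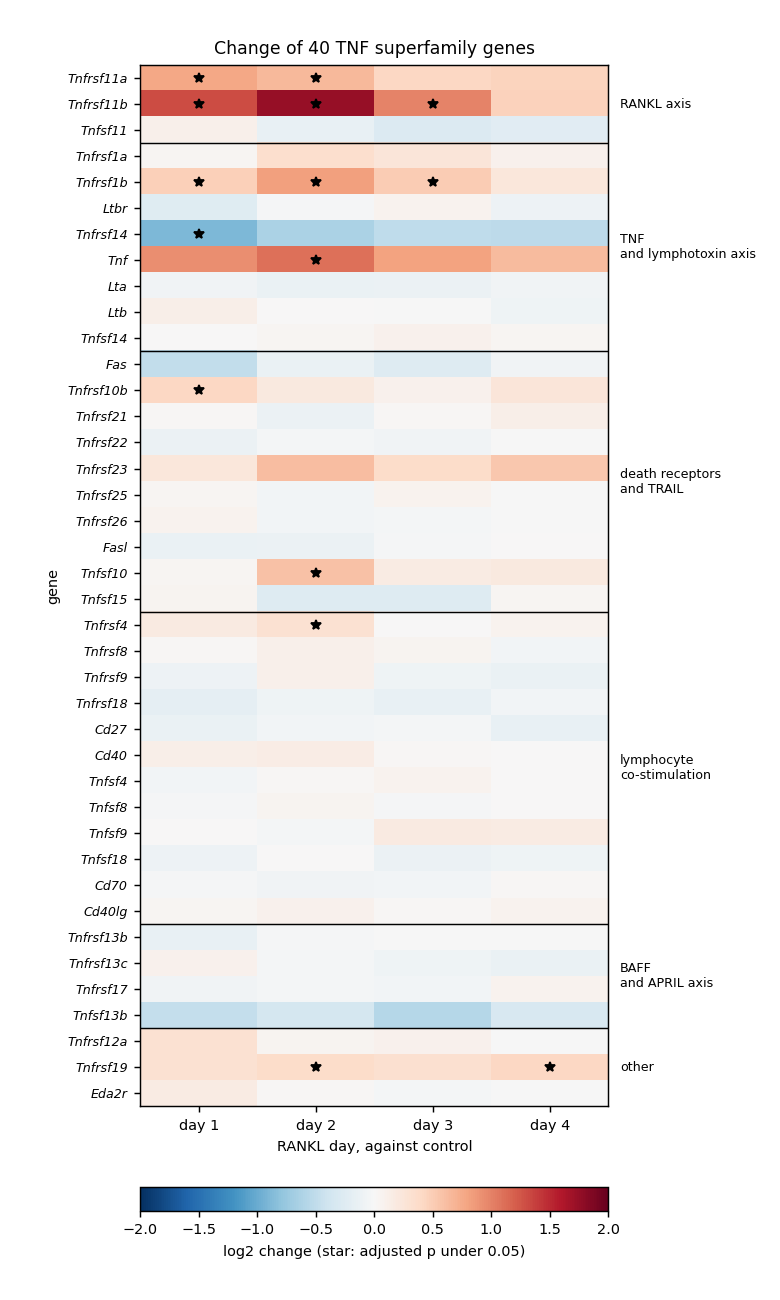
Log2 change against control of the 40 members (rows, grouped by role) on each RANKL day (columns), with red for a rise, blue for a fall and a star where the adjusted p was under 0.05. The 15 stars fall on 9 genes, 14 for rises and 1 for the fall of Tnfrsf14 on day 1.

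Within the RANKL axis, both receptors rose and the ligand gene was not called on any day. RANK (Tnfrsf11a, probe set 10349051, chromosome 1) read 9.59, 9.54 and 9.53 in the controls and 10.43, 10.20 and 10.36 after 1 day. The arrays read 10.16, 10.23 and 10.24 on day 2, then 9.71, 10.00 and 10.21 on day 3, and 9.95, 9.91 and 10.13 on day 4. Every RANKL array therefore lay above every control array, with day 1 at the top. The gene rose by 0.78 ± 0.11 on day 1 (SE, n = 3 arrays per group; 1.71-fold, adjusted p = 0.000884) and by 0.66 ± 0.11 on day 2 (1.58-fold, adjusted p = 0.00402). The changes of 0.42 on day 3 (adjusted p = 0.0532) and 0.44 on day 4 (adjusted p = 0.0888) were not called. Day 3 was called with the replicate number as a block (adjusted p = 0.0466), without RANKL day 1 replicate 2 (adjusted p = 0.0318) and without RANKL day 3 replicate 1 (0.00832), and day 4 without RANKL day 3 replicate 1 (0.0269) or replicate 3 (0.0420). Without RANKL day 1 replicate 2 the day 1 change was 0.84 (adjusted p = 0.00118). RNA came from the whole epithelial sheet, where more cells of a type and more RNA per cell cannot be told apart.

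Osteoprotegerin (Tnfrsf11b, probe set 10428604, chromosome 15) had the largest rise of the family on days 1, 2 and 3. Its controls read 7.54, 7.25 and 7.34, close to background. The arrays read 9.00, 8.41 and 8.65 on day 1, 9.09, 9.00 and 9.27 on day 2, 8.09, 8.22 and 8.80 on day 3, and 7.74, 7.98 and 7.80 on day 4. No RANKL array fell among the controls, day 2 stood highest, and the day 4 arrays came closest to the controls. The gene rose by 1.31 ± 0.18 on day 1 (2.48-fold, adjusted p = 0.000742), by 1.75 ± 0.18 on day 2 (3.36-fold, adjusted p = 5.67e-05) and by 1.00 ± 0.18 on day 3 (1.99-fold, adjusted p = 0.00806). The day 4 change of 0.47 was not called (adjusted p = 0.389). Controls at background can compress a fold change, so these folds may understate the rise. Without RANKL day 1 replicate 2 the day 1 change was 1.47 (adjusted p = 0.000649).

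M cell markers moved beside both receptor genes: of 12 measured, 10, 11, 11 and 9 were higher on days 1 to 4 (2%, 1.52%, 1.72% and 0.818% of all genes were) and none was lower. Their summed intensity was 5139 to 5886 in controls, 17681 to 19846 on day 1, 22293 to 24796 on day 2, 17268 to 21393 on day 3 and 10552 to 14958 on day 4. It stood highest on day 2, as Tnfrsf11b did, whereas Tnfrsf11a stood highest on day 1. The list of markers was drawn up with results on these arrays known, and the part of M cells in these values was not tested.

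The gene of the ligand itself, Tnfsf11 (probe set 10421737, chromosome 14), read 8.60, 8.21 and 8.54 in the controls and 8.18, 9.14 and 8.33 on day 1. Its later arrays read 8.10, 8.44 and 8.37 on day 2, 8.15, 8.20 and 8.18 on day 3, and 8.22, 8.11 and 8.33 on day 4. The groups overlapped on days 1, 2 and 4, day 3 lay just below the controls, and the high day 1 value came from replicate 2. The day 1 change of 0.10 (95% interval -0.32 to 0.52, adjusted p = 0.896) became -0.20 without that array (adjusted p = 0.426). On days 2, 3 and 4 it was -0.15, -0.27 and -0.23 (adjusted p = 0.878, 0.564 and 0.779), with intervals that together span -0.69 to 0.27. The injected protein itself is not read by an RNA array.

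**Figure D2:**
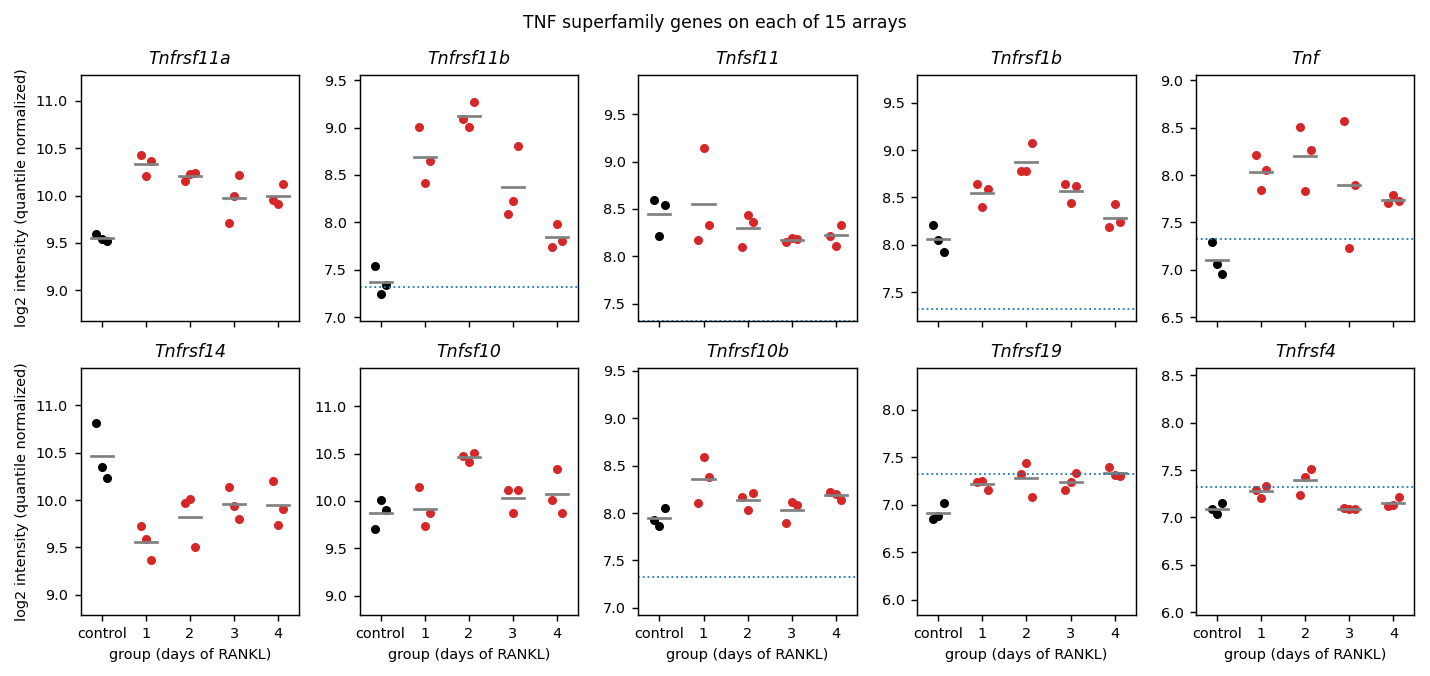
Quantile normalized log2 intensity of 10 members on each of the 15 arrays (points), by group on the horizontal axis; bars are group means and the dotted line is the background level of 7.32 where it lies within a panel. All panels span the same number of log2 units; the Tnfrsf11a and Tnfrsf11b points of every RANKL day lie above all control points, and those of Tnfrsf14 lie below them.

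On the TNF and lymphotoxin axis, TNF and the receptor TNFR2 rose, HVEM fell, and the other 5 genes were not called. Tnf (probe set 10450501, chromosome 17), the founding cytokine of the family, read 7.29, 7.06 and 6.95 in the controls, below background. It read 8.21, 7.85 and 8.05 on day 1, 8.50, 7.84 and 8.27 on day 2, 8.57, 7.23 and 7.90 on day 3, and 7.70, 7.79 and 7.73 on day 4. On days 1, 2 and 4 every array lay above every control, and on day 3 replicate 2 lay within the control range. The day 2 rise was 1.10 ± 0.25 (adjusted p = 0.0355), given without a fold because the controls lay below background, so that it may understate the change. The changes of 0.93 on day 1 (adjusted p = 0.0596), 0.80 on day 3 (0.121) and 0.64 on day 4 (0.422) were not called. With the replicate number as a block, days 1 and 3 were (0.0172 and 0.0479). The day 2 call was lost without control replicate 1, 2 or 3 (adjusted p = 0.0635, 0.0903 and 0.144), RANKL day 2 replicate 1 or 3 (0.166 and 0.0932), RANKL day 3 replicate 3 (0.0517) or RANKL day 4 replicate 1 (0.0528). Without RANKL day 1 replicate 2 the day 1 change was 1.05 (0.0605). Day 1 was called without RANKL day 3 replicate 1 (0.0126) or replicate 2 (0.0135), and day 3 without its replicate 2 (0.0174).

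Among myeloid and dendritic cell markers, beside which Tnf may be read since these cells also make it, Itgam rose on day 2 by 0.99 (adjusted p = 0.00418), the only marker of 11 called that day. Csf1r was the only marker called on day 1, where it was lower (mean 7.20, against 7.56 in controls). None was called on days 3 or 4. The summed intensity of the 11 was 2690 to 2969 in controls, 2320 to 2796 on day 1 and 2529 to 2838 on day 2. Adgre1, Fcgr1, Cd209a, Xcr1 and Clec9a were not above background in any group. No T cell marker of 13 was called on any day. The part of these cells in the Tnf values was not tested.

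Tnfrsf1b (probe set 10518300, chromosome 4) encodes TNFR2, the TNF receptor without a death domain. It read 8.21, 8.06 and 7.92 in the controls, 8.64, 8.40 and 8.59 on day 1, 8.78, 8.78 and 9.07 on day 2, 8.64, 8.44 and 8.62 on day 3, and 8.19, 8.43 and 8.24 on day 4. The groups of days 1, 2 and 3 did not overlap the controls and day 4 did. The gene rose by 0.48 ± 0.11 on day 1 (1.39-fold, adjusted p = 0.0235), by 0.81 ± 0.11 on day 2 (1.76-fold, adjusted p = 0.000774) and by 0.50 ± 0.11 on day 3 (1.42-fold, adjusted p = 0.0247). On day 4 the change was 0.22 (adjusted p = 0.553). Without RANKL day 1 replicate 2 the day 1 change was 0.56 (adjusted p = 0.0150). The day 2 call was kept without each array in turn. The day 1 call was lost without control replicate 2 or 3 (adjusted p = 0.0715 and 0.111) or RANKL day 1 replicate 1 or 3 (0.0883 and 0.0738). The day 3 call was lost without control replicate 2 or 3 (0.0707 and 0.104) or RANKL day 3 replicate 1 or 3 (0.0771 and 0.109).

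Its partner Tnfrsf1a, which encodes the widely expressed TNF receptor with a death domain, stayed between 10.49 and 11.13 on all arrays. Its changes of 0.04, 0.34, 0.24 and 0.08 on days 1 to 4 were not called (adjusted p = 0.926, 0.097, 0.218 and 0.842). Whether the changes of these genes differ from each other was not tested.

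Tnfrsf14 (probe set 10519060, chromosome 4) encodes HVEM, the receptor of LIGHT, which also binds the lymphocyte inhibitor BTLA. Its controls read 10.81, 10.35 and 10.23, and the day 1 arrays 9.72, 9.59 and 9.37. Later arrays read 9.97, 10.01 and 9.50 on day 2, 10.14, 9.94 and 9.79 on day 3, and 10.20, 9.73 and 9.91 on day 4. All 12 RANKL arrays lay below all 3 controls, with day 1 lowest. The day 1 change was -0.90 ± 0.18 (1.87-fold lower, adjusted p = 0.0103), and it was called without each array in turn (-0.91 without RANKL day 1 replicate 2, adjusted p = 0.0207). The changes of -0.64, -0.51 and -0.52 on days 2, 3 and 4 were not called (adjusted p = 0.0878, 0.162 and 0.311). With the replicate number as a block they were, on day 2 (0.00721), day 3 (0.0283) and day 4 (0.0479). Beside this fall, the summed intensity of the 13 T cell and intraepithelial lymphocyte markers was 5312 to 6988 in controls and 4648 to 5207 on day 1. It was 4771 to 6725 on day 2, 4974 to 7394 on day 3 and 3787 to 5113 on day 4. The part of these cells in the result was not tested.

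Ltbr, the lymphotoxin beta receptor, whose signal in lymphoid organs also runs through the Nfkb2 route, read 9.60, 9.25 and 9.32 in the controls and 9.15, 9.15 and 9.17 on day 1, all below the controls. Its day 2, 3 and 4 arrays read 9.32, 9.31 and 9.49, then 9.47, 9.41 and 9.50, then 9.32, 9.29 and 9.26, within the range of the controls. The changes were -0.24 (95% interval -0.42 to -0.06, adjusted p = 0.167; -0.23 without RANKL day 1 replicate 2, adjusted p = 0.196), -0.02, 0.07 and -0.10 (adjusted p = 0.973, 0.783 and 0.766). The ligand gene Ltb changed by at most 0.11 in size on any day, between 7.39 and 7.99 over all arrays. The genes of lymphotoxin alpha (Lta) and LIGHT (Tnfsf14) were not above background in any group.

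Among death receptors and their ligands, the TRAIL gene and the mouse TRAIL receptor gene each rose on a single day. Tnfsf10, which encodes TRAIL (probe set 10491091, chromosome 3), read 9.70, 10.01 and 9.90 in the controls, 10.14, 9.73 and 9.87 on day 1, 10.47, 10.41 and 10.50 on day 2, 10.12, 9.88 and 10.12 on day 3, and 10.01, 10.33 and 9.87 on day 4. Only the day 2 group stood clear of the controls. The rise was 0.59 ± 0.13 on day 2 (1.50-fold, adjusted p = 0.0261), and the other days gave 0.04, 0.16 and 0.20 (adjusted p = 0.934, 0.615 and 0.687). The day 2 call was lost without control replicate 1 or 3 (adjusted p = 0.118 and 0.0842) or RANKL day 2 replicate 1, 2 or 3 (0.0981, 0.0749 and 0.0788).

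Tnfrsf10b (probe set 10416230, chromosome 14), the TRAIL receptor, read 7.93, 7.86 and 8.05 in the controls, 8.11, 8.59 and 8.38 on day 1, 8.17, 8.03 and 8.21 on day 2, 7.89, 8.11 and 8.09 on day 3, and 8.22, 8.21 and 8.14 on day 4. Days 1 and 4 lay above the controls, and replicate 2 was the highest on day 1. The day 1 rise of 0.41 ± 0.11 (1.33-fold) was called at an adjusted p of 0.0473. It was 0.30 without RANKL day 1 replicate 2 (adjusted p = 0.104). Of the 15 arrays, 13 ended the call when left out (adjusted p from 0.0554 to 0.141), all but RANKL day 1 replicate 1 and RANKL day 3 replicate 1.

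Fas, the receptor of Fas ligand, read 7.84, 8.19 and 8.15 in the controls and 7.69, 7.15 and 7.85 on day 1, where replicate 2 was the lowest of all arrays. It read 7.93, 7.59 and 8.25 on day 2, 8.05, 7.68 and 7.69 on day 3, and 8.01, 7.95 and 8.03 on day 4. Every group overlapped the controls. The day 1 change was -0.50 (95% interval -0.90 to -0.09, adjusted p = 0.199), and -0.29 without replicate 2 (adjusted p = 0.401). Changes on days 2, 3 and 4 were -0.14, -0.26 and -0.07 (adjusted p = 0.881, 0.578 and 0.945).

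Of the remaining 7 genes of this class, Tnfrsf22, Tnfrsf25, Tnfrsf26 and Fasl were not above background. Tnfrsf21, which encodes a death receptor well expressed here (9.55 to 10.08 over all arrays), changed by at most 0.11 in size. Tnfrsf23, a decoy TRAIL receptor in mouse and a close copy of Tnfrsf22, changed by 0.22, 0.62, 0.36 and 0.54 on days 1 to 4, with no call (adjusted p = 0.743, 0.195, 0.454 and 0.422). Probes for close copies may read both, so its values are uncertain. The TL1A gene Tnfsf15 changed by -0.25 and -0.26 on days 2 and 3 (adjusted p = 0.251 and 0.191).

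Co-stimulatory genes of lymphocytes were mostly at background, as 9 of the 12 were in every group. The exceptions were Tnfrsf4, Tnfrsf9 and Cd40, and of these Tnfrsf4 alone was called. Tnfrsf4, which encodes the T cell receptor OX40 (probe set 10511282, chromosome 4), read 7.09, 7.04 and 7.15 in the controls, 7.29, 7.21 and 7.33 on day 1, 7.24, 7.43 and 7.51 on day 2, 7.10, 7.09 and 7.09 on day 3, and 7.12, 7.13 and 7.22 on day 4. Days 1 and 2 lay above the controls, but only the day 2 mean passed the background level. The rise was 0.30 ± 0.07 on day 2 (adjusted p = 0.0468), again from controls below background and so without a fold. Leaving out 1 array ended the call for 13 of the 15 (adjusted p from 0.0532 to 0.188), all but RANKL day 1 replicate 2 and RANKL day 2 replicate 1. Cd40, the receptor by which antigen-presenting cells receive T cell help, stayed between 7.28 and 7.83, with changes of 0.12, 0.14, 0.02 and 0.01.

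No gene of the BAFF and APRIL axis was called. Tnfsf13b, which encodes the B cell survival factor BAFF, had the most negative change among genes never called. It read 8.27, 8.32 and 8.24 in the controls, 7.67, 7.83 and 7.89 on day 1, 7.80, 7.94 and 8.05 on day 2, 8.29, 7.45 and 7.40 on day 3, and 8.10, 7.99 and 7.76 on day 4. The arrays of days 1, 2 and 4 lay below all controls, whereas day 3 replicate 1 lay among them. The changes were -0.48, -0.35, -0.56 and -0.33 (adjusted p = 0.202, 0.513, 0.126 and 0.636). Without RANKL day 3 replicate 1 the day 3 change was -0.85 and called (adjusted p = 0.000977), and the day 1 change of -0.48 was called too (0.0129). The BAFF receptor gene Tnfrsf13c changed by at most 0.14 in size, and Tnfrsf13b and Tnfrsf17 were not above background. Of 9 B cell and plasma cell markers, Cd79b, Ighm, Jchain, Sdc1 and Mzb1 lay above background in every group, and Cd79a, Ms4a1, Pax5 and Cd22 in none. Sdc1 was lower on day 2 (-0.54, adjusted p = 0.0387), and no other marker of this list was called on any day. Their summed intensity was 3414 to 4543 in controls, 2647 to 3796 on day 1, 2514 to 3367 on day 2, 2987 to 4359 on day 3 and 3498 to 3532 on day 4, and the part of these cells in the Tnfsf13b values was not tested. A probe set that names Tnfsf13 together with Tnfsf12 was outside the rule, and was not called on any day (day 1 change -0.33, adjusted p = 0.132).

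Of the other 3 receptors, Tnfrsf19, which encodes TROY and marks stem cells in the mouse intestine, was called on days 2 and 4. It read 6.85, 6.88 and 7.02 in the controls, 7.24, 7.25 and 7.15 on day 1, 7.33, 7.44 and 7.08 on day 2, 7.15, 7.23 and 7.34 on day 3, and 7.40, 7.31 and 7.30 on day 4 (probe set 10420596, chromosome 14). All RANKL arrays lay above all controls, yet every group but day 4 had a mean below background. The changes were 0.30 (adjusted p = 0.0874), 0.36 (0.0466), 0.32 (0.0695) and 0.42 ± 0.09 (0.0424), given without folds because they compare with controls below background. With the replicate number as a block neither day 2 (0.0597) nor day 4 (0.0623) was called. The day 2 call was lost without 13 of the 15 arrays (adjusted p from 0.0516 to 0.227), all but RANKL day 1 replicate 2 and RANKL day 2 replicate 3. The day 4 call was lost without 11 (0.0517 to 0.191), all but those 2, RANKL day 2 replicate 2 and RANKL day 3 replicate 1. Days 1 and 3 were called without RANKL day 2 replicate 3 (0.0371 and 0.0301).

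Beside Tnfrsf19, the 12 intestinal stem cell markers had a summed intensity of 6961 to 7879 in controls, 7643 to 8995 on day 1, 6781 to 11047 on day 2, 10230 to 11584 on day 3 and 9876 to 10719 on day 4. Of them 3, 2, 2 and 1 were higher on days 1 to 4 (2%, 1.52%, 1.72% and 0.818% of all genes were) and none was lower. Their part in the Tnfrsf19 values was not tested. Tnfrsf12a, which encodes the TWEAK receptor Fn14, changed by 0.31 on day 1 (adjusted p = 0.351; 0.49 and called without RANKL day 1 replicate 1, adjusted p = 0.0468), and Eda2r, an ectodysplasin receptor gene on chromosome X, was not above background.

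**Figure D3:**
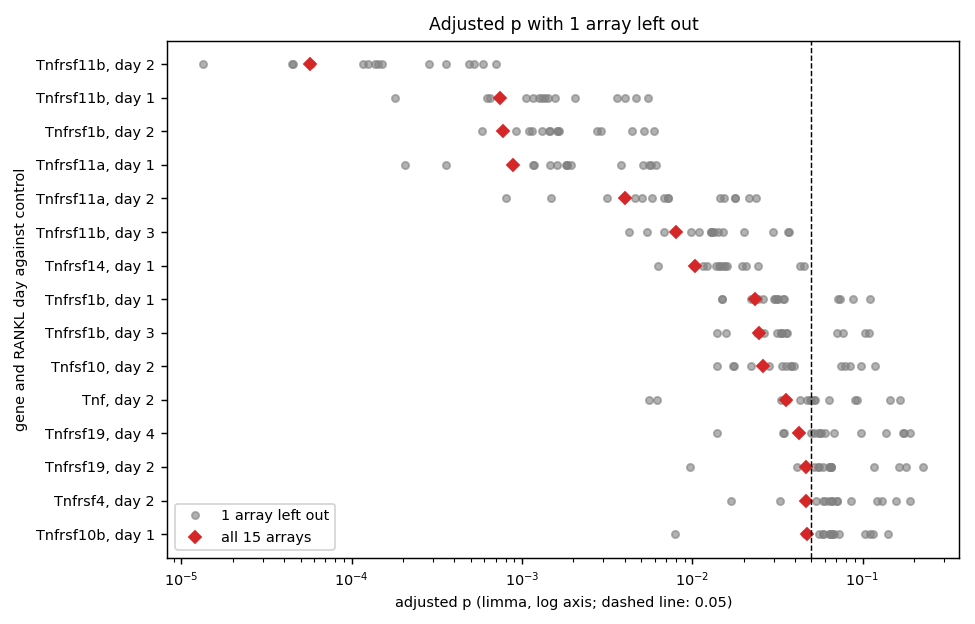
Adjusted p (horizontal log axis) of the 15 calls of members against control, with all arrays (red diamonds) and with 1 array left out (grey points, 15 per call); the dashed line is the threshold of 0.05. The 7 calls in the upper rows keep all points left of the line, and the other 8 do not.

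Of the 15 calls, 7 were kept without each array in turn: Tnfrsf11a on days 1 and 2, Tnfrsf11b on days 1, 2 and 3, Tnfrsf1b on day 2 and Tnfrsf14 on day 1. The other 8 were lost without at least 1 array. With RANKL day 1 replicate 2 left out, the counts were 4, 7, 3 and 1 on days 1 to 4, against 5, 7, 2 and 1 with all arrays. Calls over all genes moved as well, to 1002, 717, 1188 and 336 from 785, 513, 590 and 181. The 31 members never called had changes from -0.56 (Tnfsf13b, day 3) to 0.62 (Tnfrsf23, day 2), and 23 of them stayed under 0.2 in size on all 4 days.

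RANKL days were also compared with each other, each day with the day before and day 4 with day 1. Other pairs of RANKL days were not tested. No member was called between days 1 and 2, days 2 and 3 or days 3 and 4, where 0.201%, 0% and 0.015% of all genes were. Between day 1 and day 4, Tnfrsf11b was lower by day 4, against 0.276% of all genes. Its change was -0.84 ± 0.18 (1.80-fold lower, adjusted p = 0.0337). The call was lost without control replicate 3 (adjusted p = 0.0511), RANKL day 1 replicate 1 (0.0962), RANKL day 2 replicate 1 or 2 (0.0542 and 0.0501), or RANKL day 4 replicate 1, 2 or 3 (0.168, 0.0592 and 0.0926). From day 2 to day 3 it changed by -0.75 (adjusted p = 0.53), and from day 3 to day 4 by -0.53 (0.603). Tnfrsf11a changed by -0.33 between days 1 and 4 (adjusted p = 0.162).

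Many members are neighbours in the genome. Their calls are set beside the share of all members called, 9 of 40, and were not tested as pairs. The gene order holds 11 pairs of adjacent members. Both genes were called in 0 pairs, exactly 1 in 4 pairs and neither in 7. The 4 pairs were Ltb and Tnf, Tnf and Lta, Tnfrsf1b and Tnfrsf8, and Tnfrsf4 and Tnfrsf18. Of the uncalled partners, Lta, Tnfrsf8 and Tnfrsf18 were not above background in any group, and Ltb was. No result is read from how the calls divide within pairs. The promoters of rising genes and of 2 such neighbours are shown as a description. Each runs from 250 bases before to 50 after the start of the gene, 5′ to 3′ on the strand of the gene, from RefSeq on GRCm38.p6, and capitals mark a match to the kappaB consensus, the word bound by NF-kB, on either strand.
Tnfrsf11a (chr1:105780473-105780772, plus strand): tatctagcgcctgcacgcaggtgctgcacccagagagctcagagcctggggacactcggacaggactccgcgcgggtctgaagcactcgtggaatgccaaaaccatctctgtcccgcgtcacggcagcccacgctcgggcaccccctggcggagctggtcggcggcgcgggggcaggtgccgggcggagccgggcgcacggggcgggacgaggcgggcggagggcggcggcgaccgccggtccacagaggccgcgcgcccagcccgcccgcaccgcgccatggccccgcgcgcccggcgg
Tnfrsf1b (chr4:145246821-145247120, minus strand): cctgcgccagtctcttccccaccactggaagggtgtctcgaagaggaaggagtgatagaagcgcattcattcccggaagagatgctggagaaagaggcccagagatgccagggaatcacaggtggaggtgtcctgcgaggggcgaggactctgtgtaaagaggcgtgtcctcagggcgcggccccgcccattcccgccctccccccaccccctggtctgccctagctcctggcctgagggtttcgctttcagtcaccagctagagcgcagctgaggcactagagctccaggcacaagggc
Tnfrsf8 (chr4:145315115-145315414, minus strand): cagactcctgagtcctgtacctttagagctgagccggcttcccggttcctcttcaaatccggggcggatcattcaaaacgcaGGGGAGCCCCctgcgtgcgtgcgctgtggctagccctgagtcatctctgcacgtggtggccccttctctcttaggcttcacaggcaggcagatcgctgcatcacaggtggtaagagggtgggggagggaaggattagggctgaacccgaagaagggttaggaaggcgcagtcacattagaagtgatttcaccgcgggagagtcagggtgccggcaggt
Tnf (chr17:35201958-35202257, minus strand): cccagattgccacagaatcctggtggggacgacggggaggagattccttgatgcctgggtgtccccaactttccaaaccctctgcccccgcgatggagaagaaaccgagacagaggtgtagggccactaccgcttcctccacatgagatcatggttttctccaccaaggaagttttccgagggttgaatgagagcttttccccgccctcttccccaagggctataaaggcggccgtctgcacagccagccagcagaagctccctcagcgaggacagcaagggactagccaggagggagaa
Ltb (chr17:35194257-35194556, plus strand): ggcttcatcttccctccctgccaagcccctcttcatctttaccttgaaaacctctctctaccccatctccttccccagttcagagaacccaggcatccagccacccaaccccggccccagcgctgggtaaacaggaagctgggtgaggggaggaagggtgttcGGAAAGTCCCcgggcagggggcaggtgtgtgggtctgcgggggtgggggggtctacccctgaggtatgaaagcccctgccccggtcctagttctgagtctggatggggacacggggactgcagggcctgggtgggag

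The table of promoters held 31 of the 40 members. A match to the kappaB consensus stood in the promoters of 3 members, Ltb, Tnfrsf8 and Tnfrsf9, and in 1480 of all 32851 promoters (4.51%). In Ltb it lay 87 to 78 bases before the start and in Tnfrsf8 168 to 159 bases before it, both on the opposite strand. In Tnfrsf9 overlapping matches covered 43 to 33 bases before the start. None of these 3 genes was called. The windows of Tnfrsf11a, Tnfrsf1b and Tnf hold no match, which says only that these letters are not in this window.

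Genes that act behind these receptors were read from 5 lists. Their counts stand beside the shares of all genes that were higher on days 1 to 4, 2%, 1.52%, 1.72% and 0.818%, and lower, 1.94%, 1.05%, 1.24% and 0.0903%. Of 18 adaptors and proximal kinases measured, 2 were higher on days 1 and 2, none on day 3 and 1 on day 4, and none was lower. Their median change was -0.01, 0.07, 0.07 and 0.07 on days 1 to 4. Traf2, an adaptor of RANK and the TNF receptors, rose by 0.77 ± 0.08 on day 1 (adjusted p = 0.000103), by 0.42 on day 2 (0.0127) and by 0.40 on day 4 (0.0369). Birc3, which encodes a ubiquitin ligase that works with Traf2, rose by 0.84 ± 0.14 on day 1 (adjusted p = 0.00328) and by 0.65 on day 2 (0.0220). The day 1 calls were kept without each array in turn. The day 2 call of Traf2 was lost without control replicate 3 (0.0703) or RANKL day 2 replicate 3 (0.0539). That of Birc3 was lost without control replicate 1 (0.0773) or RANKL day 2 replicate 2 or 3 (0.0722 and 0.0832). The day 4 call of Traf2 was lost without 9 arrays (0.0510 to 0.141): all 3 controls, all 3 of day 4, RANKL day 2 replicate 2 and RANKL day 3 replicates 1 and 3. That call was also lost with the replicate number as a block (0.0550) and with the trended and robust prior (0.0649). Map3k14, the kinase of the Nfkb2 route, changed by 0.28, 0.26, 0.27 and 0.41 and was not called (adjusted p = 0.261, 0.394, 0.258 and 0.162). Traf3 was not analysed here.

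Of 13 NF-kB subunits, inhibitors and kinases, 6, 4, 3 and 2 were higher on days 1 to 4, and 1, Ikbke, was lower on day 3. Their median change was 0.19, 0.12, 0.03 and 0.05. Nfkb1 and Chuk, also on this list of 15, were not among the genes measured here. Nfkb2 rose by 1.63 ± 0.08, 1.13, 0.80 and 0.91 on days 1 to 4 (adjusted p = 1.97e-07, 3.02e-06, 0.000102 and 7.27e-05). Relb, its partner, rose by 0.43 on day 1 (adjusted p = 0.00355) and read 0.18, -0.13 and 0.02 afterwards, not called. The inhibitor genes rose as well: Nfkbia by 0.94 and 0.95 on days 1 and 2 (adjusted p = 0.00109 and 0.00131) and Nfkbie by 0.59 and 0.47 (0.000619 and 0.00425). Bcl3, an atypical inhibitor family member, rose by 0.74 on day 1 (adjusted p = 0.00712). These calls were kept without each array in turn. The Relb call was lost with the values as deposited (0.0635), median centring (0.187) and its 2 groups alone (0.0866), and that of Bcl3 with median centring (0.0671).

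Nfkb2 on days 2, 3 and 4 was likewise kept without each array, and 6 other calls of that list were not. Nfkbib rose by 0.41 on day 1 (adjusted p = 0.0192), lost without control replicate 2 or 3 (0.0733 and 0.0907) or RANKL day 1 replicate 1 or 3 (0.0700 and 0.0531). It rose by 0.42 on day 2 (adjusted p = 0.0200), lost without control replicate 2 or 3 (0.0717 and 0.109) or RANKL day 2 replicate 1, 2 or 3 (0.0676, 0.0656 and 0.0709). Nfkbia rose by 0.61 on day 3 (0.0269), lost without control replicate 1 or 2 (0.0925 and 0.0840) or RANKL day 3 replicate 1 or 3 (0.0846 and 0.0648). Its rise of 0.63 on day 4 (0.0460) was lost without 9 arrays (0.0513 to 0.206): all 3 controls, RANKL day 1 replicate 3, RANKL day 2 replicates 1 and 3, RANKL day 3 replicate 3 and RANKL day 4 replicates 1 and 3. Nfkbie on day 3 (0.31, adjusted p = 0.0489; 0.0578 with the replicate number as a block) was kept without control replicate 3, RANKL day 1 replicate 2 or RANKL day 2 replicate 3, and lost without each of the other 12 arrays (0.0523 to 0.149). Ikbke on day 3 (-0.33, adjusted p = 0.0363) was lost without 8 arrays (0.0513 to 0.151): all 3 controls, RANKL day 2 replicates 1 and 2, RANKL day 3 replicates 2 and 3 and RANKL day 4 replicate 1.

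**Figure D4:**
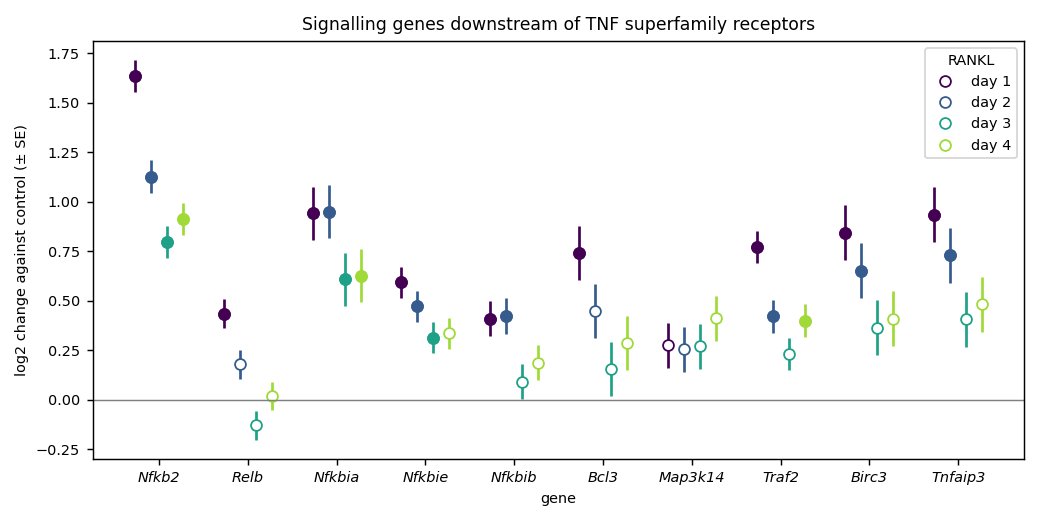
Log2 change against control (± SE) of 10 signalling and feedback genes on RANKL days 1 to 4 (colours); filled points had an adjusted p under 0.05. Nfkb2 stands highest on day 1 at 1.63, and Map3k14 has open points on all days.

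Of 14 TNF-induced and NF-kB target genes, 5, 5, 4 and 4 were higher on days 1 to 4 and none was lower, with a list median of 0.18, 0.12, 0.15 and 0.14. This list holds Tnfaip2, an M cell marker, and was drawn up with results on these arrays known. Ccl20, the chemokine that attracts CCR6-bearing lymphocytes, rose by 2.37, 3.36, 2.78 and 1.71, and Cxcl16, a chemokine for activated lymphocytes, by 1.95, 1.57, 1.26 and 1.35 on days 1 to 4, and these calls were kept without each array in turn. Tnfaip3, which encodes the feedback inhibitor A20, rose by 0.93 ± 0.14 on day 1 (adjusted p = 0.00155) and by 0.73 on day 2 (0.0110), the latter lost without control replicate 1 (0.0566) or RANKL day 2 replicate 1 (0.0583). Beside these rises, M cell markers had a summed intensity of 5139 to 5886 in controls and 22293 to 24796 on day 2, and their part in the changes was not tested.

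Of 10 genes of death receptor signalling, Ripk3, the kinase of necroptosis, was the only one called, by 0.59 on day 1 (adjusted p = 0.0201) and 0.63 on day 2 (0.0179). The list median was 0.08, 0.13, 0.10 and 0.04. The day 1 call was lost without control replicate 1 or 3 (0.0568 and 0.0808) or RANKL day 1 replicate 1 or 3 (0.0668 and 0.0556), and the day 2 call without control replicate 1 or 3 (0.0611 and 0.0846) or RANKL day 2 replicate 3 (0.0646). Of 10 shedding proteases and related receptors, 2, 2, 0 and 1 were higher, with a list median of 0.04, 0.03, 0.14 and 0.10. Relt, a receptor of the same family named outside the symbol rule, rose by 0.55 ± 0.07 on day 1 (adjusted p = 0.000346) and 0.52 on day 2 (0.00062), and both calls were kept without each array in turn. Rhbdf2, which encodes a protein needed to bring the TNF-shedding protease to the cell surface, rose by 0.42 on day 1 (adjusted p = 0.0071; lost with median centring, 0.0951, and its 2 groups alone, 0.145), and by 0.32 and 0.37 on days 2 and 4 (0.0466 and 0.0450). The calls on days 2 and 4 were lost without 10 of the 15 arrays (0.0562 to 0.175 and 0.0578 to 0.203), all but control replicate 1, the 3 day 1 arrays and RANKL day 3 replicate 2.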

How the data were processed

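Gene expression was measured on 15 arrays with biotin-labelled target. The authors deposited a linear intensity for each probe set and array, from 25.95 to 24106.7. How probes were summarised and normalized before deposit is not given in the sources used here. The genome build is mm9, per the submitters' processing notes. Chromosomes come from the RefSeq gene table, and promoters from RefSeq on GRCm38.p6.

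The members and lists were chosen with earlier results of these data known, so no pattern here is independent support for those results. Log2 values, with an offset of 0, were quantile normalized, since the array medians ranged over 0.18, above a limit of 0.1. Of 21789 probe sets with 1 symbol, the one with the highest mean stood for each of 19938 genes, and no dim gene was left out. A single limma 3.58.1 model in R 4.3.3 with 1 mean per group and no block was fitted to all 15 arrays (10 residual and 3.49 prior degrees of freedom). P-values were two-sided and adjusted by Benjamini-Hochberg over all genes within each comparison.

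Each array's values are given for members called against control or by the F test and for Tnfrsf11a, Tnfrsf11b, Tnfsf11, Ltbr, Tnf and Fas; the values of Tnfsf13b were added after they were seen. Of each list of related genes, the rule was to name up to 4 called genes per comparison with the largest change, with Nfkb2, Relb, Map3k14 and Traf3. It was not followed throughout. Not every such gene is described, and Tnfaip3 is described although genes of its list with larger changes are not. Scaling was varied (no normalization, median centring, offset 16), as were the genes (without the dimmest 40%, or with probe sets averaged), the model (array weights, trended robust prior, replicate block) and the arrays fitted (compared groups alone, or 1 array removed). The method was tested on simulated data. The replicate numbers in the labels are shared by all groups, and deviations of same-numbered arrays correlated above 0.1 in 19 of 30 pairs (-0.20 to 0.50). All 3 pairs did between control and day 2, between control and day 3 and between days 1 and 2. Not all did between control and day 1 or day 4. The number was no block in the fit because the labels name no batch. A factor shared by same-numbered arrays was not tested, and blocked values are given with the results they change. The number of arrays limits the precision.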

Additional observations from a re-analysis of the deposited data

Results flagged for a closer look

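RANKL days were tested against each other for consecutive days and for day 4 against day 1 only. In those comparisons Tnfrsf11b was the only member called. Its change was 1.31 on day 1 and 0.47 on day 4, and the difference, day 4 minus day 1, was -0.84 on the log2 scale (adjusted p = 0.0337, n = 3 arrays per group). The call was lost without 7 of the 15 arrays, and with the values as deposited, median centring or the compared groups alone. No group had enough arrays for single arrays to be tested as outliers.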

How the results depend on the processing

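No change of a called gene turned its direction under any alternative. Of the 15 calls of members against control, 6 were kept under every setting tried, those of Tnfrsf11a on days 1 and 2, Tnfrsf11b on days 1, 2 and 3 and Tnfrsf1b on day 2; that of Tnfrsf14 on day 1 was lost only when its 2 groups were fitted alone (adjusted p = 0.0571). Counts of members called moved by over 1.5 times as follows. Calls over all genes follow in brackets; under the reported setting they were 785, 513, 590 and 181 on days 1 to 4, 40 between days 2 and 1, 3 between days 4 and 3, 263 between days 4 and 1 and 718 by the F test. Median centring gave 3, 3, 1 and 0 members on days 1 to 4 (480, 311, 257 and 169), from 5, 7, 2 and 1, and 0 between days 4 and 1 (584). The values as deposited gave 4 on day 2 (383), 0 on day 4 (188) and 0 between days 4 and 1 (347), and the trended and robust prior gave 0 on day 4 (172). Only the groups compared gave 3 on day 1 (269) and 0 between days 4 and 1 (4). Weights per array, whose fit did not fully converge, gave 5 on day 3 (1322), 2 between days 2 and 1 (711), 1 between days 4 and 3 (228), 5 between days 4 and 1 (1389) and 11 by the F test (2462). The replicate number as a block gave 5 on day 3 (712) and 5 by the F test (968). Leaving out each array in turn gave 3 to 7 on day 1, 3 to 7 on day 2, 1 to 3 on day 3, 0 to 2 on day 4, 0 to 1 between days 4 and 1, and 3 to 5 by the F test. The offset of 16, the dimmest 40% left out and the mean of probe sets moved no count that far. The causes were not tested.

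Settings other than arrays left out also ended or made calls of single members (adjusted p). On day 1, Tnfrsf1b was lost with the values as deposited (0.0777), median centring (0.195) and its 2 groups alone (0.122). On day 2, Tnfsf10 was lost with the values as deposited (0.114) and median centring (0.222), and Tnf with median centring (0.0857). Tnf on day 1 was called without the dimmest 40% of genes (0.0341), with weights (0.0217), with the block (0.0172) and with its 2 groups alone (0.0211), on day 3 with the block (0.0479) and on day 4 with its 2 groups alone (0.0335). Tnfsf13b and Tnfrsf19 on day 3 were called with weights (0.0378 and 0.0424). Tnfrsf11a on day 3 was called without the dimmest 40% of genes (0.0429), with weights (0.0129) and with the block (0.0466). Tnfrsf1b on day 3 was lost with median centring (0.0944), and Tnfrsf11b between days 4 and 1 with the values as deposited (0.0541), median centring (0.0875) and its 2 groups alone (0.143). Tnfrsf10b on day 1 was lost under 3 of the 9 other settings (0.0552 to 0.286), Tnfrsf4 on day 2 under 6 (0.0515 to 0.168), and Tnfrsf19 under 5 on day 2 (0.0597 to 0.155) and 5 on day 4 (0.0550 to 0.133). Among related genes, the values as deposited, median centring or the 2 groups alone ended calls of Ripk3 on days 1 and 2 (0.0535 to 0.226), Nfkbib on days 1 and 2 (0.0768 to 0.270), Birc3 on day 2 (0.0535 to 0.0987), Ikbke (0.0838 to 0.401) and Nfkbie (0.0820 to 0.131) on day 3 and Rhbdf2 on day 2 (0.0850 to 0.155). Its 2 groups alone ended Traf2 on days 2 and 4 (0.0571 and 0.0831), Nfkbia on days 3 and 4 (0.0564 and 0.0596) and Rhbdf2 on day 4 (0.0950). With 3 arrays a group, changes that pass no test may still exist, and depth or detection flags were not used.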
